A study of Mus musculus with 82 samples.

Results

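The small leucine-rich proteoglycans are secreted proteins of the extracellular matrix, and 10 genes of this family and its close kin were followed here, taken by name from the 55401 genes of the count tables. These were Ogn, Omd, Aspn, Ecm2, Dcn, Lum, Kera, Fmod, Prelp and Podn, which encode osteoglycin, osteomodulin, asporin, extracellular matrix protein 2, decorin, lumican, keratocan, fibromodulin, prolargin and podocan. The cells were primary cultures of aortic vascular smooth muscle cells (aVSMC) grown from C57BL/6 mice, a passaged culture rather than the vessel wall, and all of them, controls included, were starved of serum and supplements for 24 h before stimulation. The ligands were 10 µg/L epidermal growth factor (EGF), 10 nM angiotensin II (AngII) and 1 µM U46619, a stable agonist of the thromboxane receptor TP. At 24 h, each of 6 mice gave 7 cultures, which were an untreated control, each ligand alone, EGF with either of the others, and all 3 together. At 48 h there were 2 batches of 5 culture sets, named after their ligands: in EGF/U46619 and in EGF/AngII, every set gave a control, both single treatments and their combination.

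Proteins of this family carry a curved domain of leucine-rich repeats, and many bear chondroitin, dermatan or keratan sulphate chains. They bind fibrillar collagens, limit how fibrils grow and fuse, and hold growth factors such as TGF-β in the matrix. Decorin and lumican are found in skin, tendon and cornea, among other tissues, and osteoglycin, also called mimecan, is abundant in the arterial wall. Keratocan is a protein of the cornea, and prolargin anchors basement membranes to the collagen beneath them. Ecm2 has similar repeats but is not always counted in the family.

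Most of these genes lie in clusters. Ogn (chromosome 13, 49608046 to 49624501, mm10), Omd (49582462 to 49592822), Aspn (49544443 to 49567565) and Ecm2 (49504810 to 49532789) follow one another on the plus strand. All 4 lie inside Cenpp, which runs on the minus strand from 49464023 to 49652785 and encodes a centromere protein. Aspn alone shares exon sequence with Cenpp, over 7 bases. Dcn (chromosome 10, 97479609 to 97518143), Lum (97565128 to 97572703) and Kera (97606879 to 97613692) form another cluster. Prelp (chromosome 1, 133910304 to 133921414, minus strand) and Fmod (134037254 to 134048277, plus strand) form the last, and Podn stands by itself on chromosome 4, from 108014791 to 108096445 on the minus strand. Prelp shares 350 exon bases with the antisense transcript Gm15851, and since the strand setting of the counting is not stated, reads of the pair cannot be told apart.

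The 250 bases before the RefSeq start site of the 4 chromosome 13 genes are shown. In fits with the labelled mouse as a term, these neighbours had the 4 lowest log2-fold changes with U46619 at both times. With the culture set as the replicate block at 48 h, Ecm2 was at -1.81, and the median of the 9 tested genes was also -1.81. They are written 5′ to 3′ from GRCm38.p6, all on the plus strand, and capitals mark matches to the motifs searched. The windows are chr13:49607765-49608014 for Ogn, chr13:49582212-49582461 for Omd, chr13:49544193-49544442 for Aspn and chr13:49504560-49504809 for Ecm2.
Ogn: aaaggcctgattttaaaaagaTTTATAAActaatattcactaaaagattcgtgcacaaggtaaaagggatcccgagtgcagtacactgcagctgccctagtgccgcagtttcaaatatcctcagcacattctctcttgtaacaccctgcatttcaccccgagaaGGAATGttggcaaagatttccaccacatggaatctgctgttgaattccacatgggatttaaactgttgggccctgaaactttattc
Omd: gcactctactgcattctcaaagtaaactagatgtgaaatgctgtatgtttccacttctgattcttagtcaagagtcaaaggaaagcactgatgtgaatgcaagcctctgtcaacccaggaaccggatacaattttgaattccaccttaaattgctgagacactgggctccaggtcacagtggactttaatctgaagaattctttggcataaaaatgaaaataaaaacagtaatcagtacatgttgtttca
Aspn: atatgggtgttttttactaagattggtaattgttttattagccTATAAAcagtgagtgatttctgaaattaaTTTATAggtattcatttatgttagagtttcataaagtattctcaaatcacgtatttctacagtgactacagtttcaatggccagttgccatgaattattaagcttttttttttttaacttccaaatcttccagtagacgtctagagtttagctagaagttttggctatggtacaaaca
Ecm2: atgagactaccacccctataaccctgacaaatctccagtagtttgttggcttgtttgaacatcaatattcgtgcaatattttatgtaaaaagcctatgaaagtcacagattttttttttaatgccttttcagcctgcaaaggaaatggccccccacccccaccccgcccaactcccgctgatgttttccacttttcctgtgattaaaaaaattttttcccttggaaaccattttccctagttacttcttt

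The motifs were TATAAA, the AP-1 site TGANTCA, the TEAD site GGAATG, the FOXO site GTAAACA and the CArG box of serum response factor, read on both strands. TATAAA was found in the Ogn and Aspn windows, at 2 places in each, with the Ogn matches overlapping on opposite strands. The same motif was found in 12.4% of the 32851 promoter windows of this length in the table. GGAATG was found in the Ogn window alone, against 12.6% of all windows. The AP-1 site, present in 6.75% of all windows, the FOXO site, in 3.17%, and the CArG box, in 1.47%, had no match in the windows of these 4 genes. Of the 10 genes, 8 had a window in the table, and Dcn and Lum had none. A match is a description of letters, not a binding site.

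The depth was 16483529 to 20818809 counts per library at 24 h and 19936925 to 33916114 at 48 h, and levels are given as FPM, the counts scaled to a common library size. All genes of chromosomes 9, X, Y and MT were listed at 0, which covers biglycan (Bgn) among the relatives and the smooth muscle markers Tagln and Cnn1. Of 10 contractile smooth muscle markers, the other 8 had counts, and their summed level in the 24 h controls was 1364 to 6005 FPM. Markers of other cells were present too. Summed over 10 markers, endothelial genes ran from 9.85 to 2565 FPM in the 6 controls at 24 h, and Cdh5 was listed at 0 in every library. A summed 914 to 1276 FPM was found for 12 adventitial fibroblast markers. One library stood apart. Control 4 of the 48 h EGF/AngII batch correlated at -0.28 with the 3 treated libraries of its own culture set and at 0.85 to 0.88 with the treated libraries of set 2, after group means were removed. Control 2 of that batch reached 0.53 to 0.55 with its own set, and the other 54 pairs within a set ranged from 0.31 to 0.94. Counts of calls at 48 h, likeness and control order are therefore also given without these 2 controls, an alternative chosen after seeing the data.

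In control cultures the 10 genes covered a wide range of levels. Per kilobase of exon, Prelp was highest at 24 h, with a median of 175.6 FPM per kb (range 132 to 271, n = 6). Ogn (52.3), Dcn (44.4) and Fmod (23.4) came next, then Aspn (6.70), Podn (6.34), Lum (6.08), Omd (1.27) and Ecm2 (1.27). Kera had at least 1 count in 19 of the 82 libraries, at most 9 counts in one, and in none of the 28 libraries with U46619. It did not pass the filter on low counts and was not tested. No neighbours in this order differed beyond their spread (adjusted p = 0.375 to 0.938 over 6 mice, exact two-sided sign-flip permutation test, smallest possible p = 0.0312). The mice differed from one another far more for some genes than for others. Control levels per kb spanned 2.05-fold between the lowest and highest mouse for Prelp, 9.31-fold for Ogn, 21.9-fold for Dcn and 227-fold for Lum. At 48 h the order of the 10 controls was Prelp (122), Dcn (51.5), Ogn (44.8), Fmod (16.3), Aspn (10.9), Podn (6.00), Omd (4.41), Ecm2 (1.85) and Lum (1.09 FPM per kb). There Ogn was above Fmod in 10 of 10 controls and Omd above Ecm2 in 10 of 10 (adjusted p = 0.00781 each, same exact test), and no other neighbours in the order passed. With controls 2 and 4 of the EGF/AngII batch left out, Aspn followed Ogn, Lum stood above Ecm2, and no neighbours passed (adjusted p = 0.333 to 0.812 over 8 controls, same exact test). These tests treat the 10 culture sets as independent, although the labels place them in 5 mice.

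At 24 h, U46619 lowered most of the genes. Ogn, Aspn, Ecm2, Fmod, Prelp and Dcn were called lower, 6 of the 9 tested, none was called higher, and Omd, Lum and Podn were not called. A gene was called when its adjusted p was under 0.05 in edgeR and in DESeq2, with mouse and treatment in the model, and when its mean reached 5 FPM in a group compared. Across all 14653 genes tested, 13.8% were called lower and 12.8% higher in the same comparison. The median log2-fold change was -1.93 over the 9 genes and -0.06 over all genes. In bulk RNA, fewer cells of a type and less RNA per cell cannot be told apart.

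Ogn, which encodes osteoglycin, was the lowest of them. Its control level was 411, 262, 197, 67.9, 71.3 and 44.1 FPM in mice 1 to 6, and with U46619 it was 14.2, 34.1, 82.6, 9.99, 9.83 and 11.9 FPM. Every mouse had the lower value with U46619, but the groups overlapped, since the U46619 culture of mouse 3 lay above the control of mouse 6. The log2-fold change was -2.56 (SE 0.42, adjusted p = 5.12e-05, edgeR's quasi-likelihood test), a 5.89-fold lower level. With EGF+U46619 the 6 mice gave 7.02, 19.1, 20.6, 9.36, 8.01 and 9.50 FPM, and with all 3 ligands 8.48, 10.9, 4.97, 7.33, 6.55 and 5.00 FPM. Neither group overlapped the control. The log2-fold changes were -3.49 (SE 0.44, adjusted p = 8.23e-07) and -4.20 (SE 0.46, adjusted p = 8.05e-08, both edgeR).

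Aspn, whose product binds collagen and restrains TGF-β, did not overlap between control and U46619. Its control levels were 34.9, 40.6, 11.1, 9.31, 11.9 and 19.7 FPM in mice 1 to 6, and with U46619 they were 3.77, 4.73, 2.57, 2.45, 1.31 and 6.87 FPM. The log2-fold change was -2.46 (SE 0.41, adjusted p = 5.60e-05, edgeR), and with EGF+U46619 it was -3.48 (SE 0.44). Ecm2 fell by 2.27 on the log2 scale (SE 0.38, adjusted p = 5.12e-05, edgeR) with U46619 and was lower in all 6 mice. The size differed among them: from 17.3 to 0.77 FPM in mouse 2, but from 8.57 to 7.02 FPM in mouse 6. Omd, a keratan sulphate proteoglycan of bone, was lower in 6 of 6 mice with a log2-fold change of -2.101 (SE 0.45, adjusted p = 0.000631, edgeR). It was not called because its mean control level, 4.66 FPM, was under the minimum, and it was called without mouse 4, 5 or 6 (-2.25, -1.98 and -2.29).

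**Figure D1:**
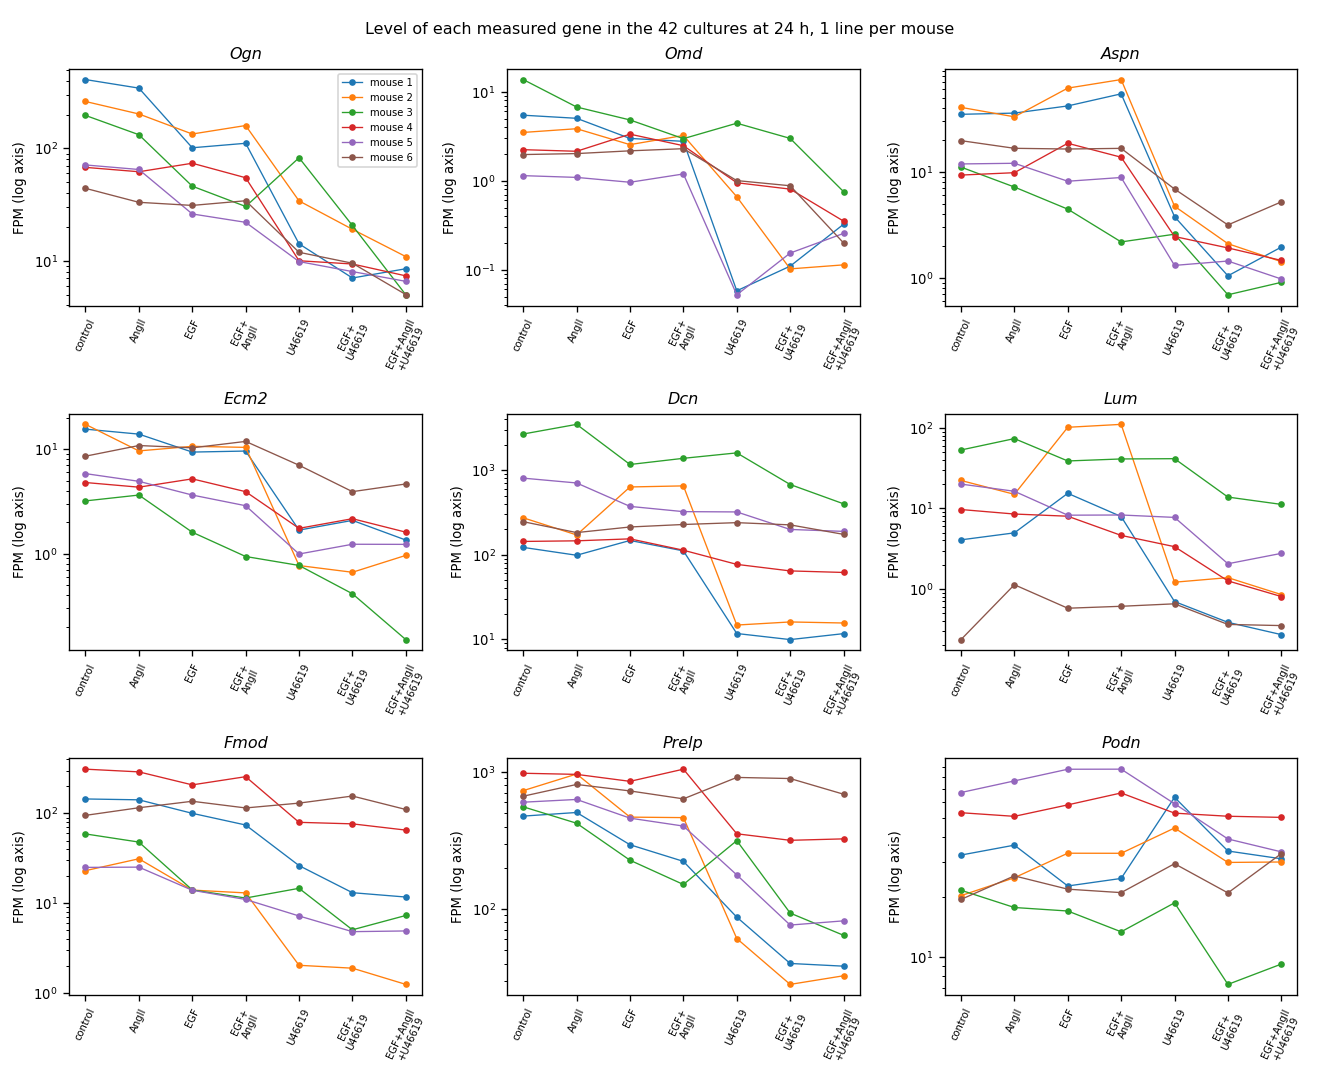
Level of each of the 9 tested genes (FPM, log axis) in every culture at 24 h, with 1 line per mouse across the 7 groups. The lines of Ogn, Omd, Aspn and Ecm2 lie below their controls at the 3 groups with U46619. From EGF+AngII to U46619 the line of mouse 3 rises for Ogn, Omd and Aspn. The lines of mouse 6 for Fmod and Prelp stay level, and those of Podn show no shared course.

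Fmod and Prelp, which encode a pair of collagen-binding proteins from chromosome 1, shared one exception. Fmod was 145, 23.1, 59.2, 312, 25.1 and 95.3 FPM in the controls of mice 1 to 6 and 26.3, 2.04, 14.7, 79.7, 7.22 and 130 FPM with U46619. Prelp was 477, 732, 558, 980, 603 and 667 FPM in the controls and 87.3, 61.0, 316, 354, 177.6 and 914 FPM with U46619. Mice 1 to 5 were lower and mouse 6 was higher, for both genes. The log2-fold changes were -1.93 (SE 0.41, adjusted p = 0.000627) for Fmod and -1.57 (SE 0.47, adjusted p = 0.00918, both edgeR) for Prelp. Without mouse 1, Prelp was no longer called (-1.36).

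Dcn and Lum responded by mouse. Dcn, the gene of decorin, was 122, 273, 2668, 143, 803 and 245 FPM in the controls and 11.7, 14.8, 1596, 76.8, 320 and 239 FPM with U46619. The lowest values and largest changes were those of mice 1 and 2, and mouse 6 changed by -0.04 on the log2 scale. The log2-fold change was -1.40 (SE 0.56) with an adjusted p of 0.0496 in edgeR, just inside the threshold, and Dcn lost the call without mouse 1, 2, 4 or 5 (-1.07, -1.12, -1.53 and -1.45). Lum was 4.07, 22.3, 53.3, 9.69, 20.1 and 0.23 FPM in the controls and 0.70, 1.21, 41.5, 3.35, 7.74 and 0.65 FPM with U46619. It was lower in 5 of 6 mice, with a log2-fold change of -1.24 (SE 0.60, adjusted p = 0.107, edgeR), and was not called. Podn, whose product restrains smooth muscle growth, did not share the pattern. Its log2-fold change with U46619 was 0.38 (SE 0.22, adjusted p = 0.190, edgeR), with 3 mice higher and 3 lower.

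EGF+U46619 and EGF+AngII+U46619 each lowered 7 of the 9 genes, the 6 above and Lum, while 15.7% and 15.6% of all genes were called lower. The median log2-fold change over the 9 genes was -2.48 and -2.63. Lum with EGF+U46619 was 0.38, 1.38, 13.8, 1.26, 2.05 and 0.36 FPM in mice 1 to 6, a log2-fold change of -2.70 (SE 0.66, adjusted p = 0.00145, edgeR). Mouse 6 was the only mouse without a lower value, and its control was at 0.23 FPM. Dcn, at -1.91 (SE 0.57), lost its call with EGF+U46619 without mouse 1 (-1.60). These comparisons share the same 6 control cultures.

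**Figure D2:**
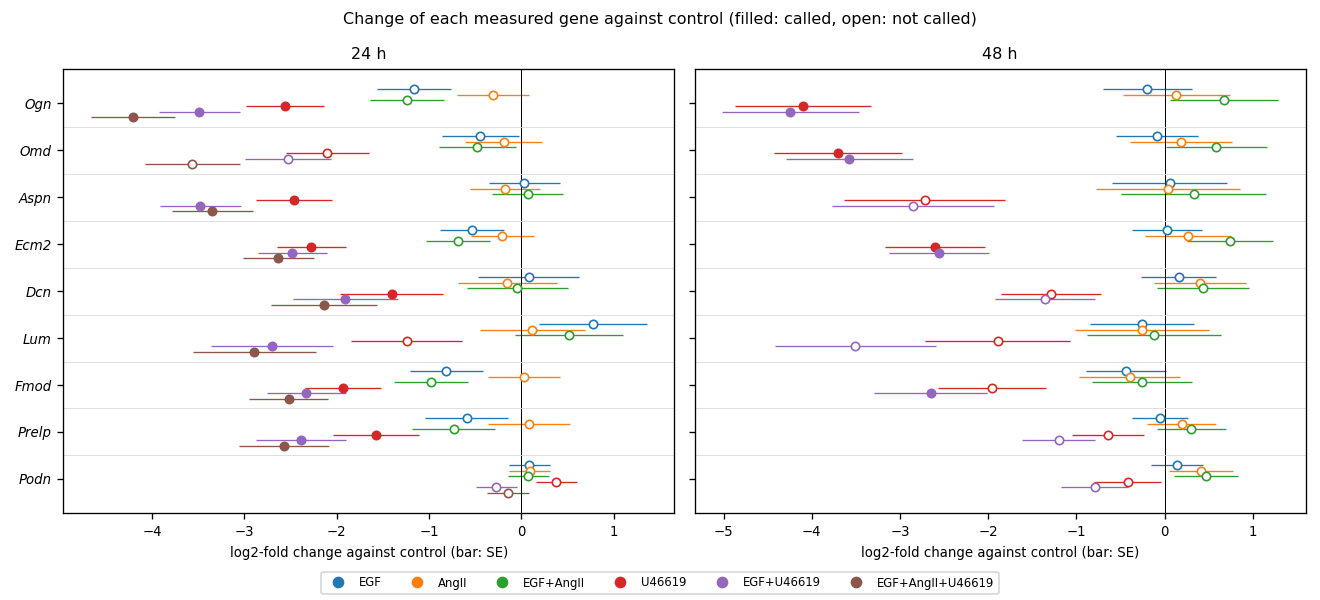
Log2-fold change against control (x axis, bars are SE) of the 9 tested genes at 24 h and 48 h, with filled points where the gene was called. Each treatment had 6 mice at 24 h and 5 culture sets at 48 h, except EGF at 48 h, which had 10 sets. At 24 h the filled points belong to the 3 treatments with U46619, and Podn has none.

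EGF alone and AngII alone gave no calls among the 9 genes at 24 h. With EGF, 0.0136% of all genes were called lower. At an unadjusted p under 0.05 edgeR had 2 of the 9 genes, and DESeq2 had 0 at its adjusted threshold. Ogn with EGF was 101, 135, 46.1, 73.9, 26.1 and 31.1 FPM in mice 1 to 6, lower than control in 5 of 6, with a log2-fold change of -1.16 (SE 0.40, adjusted p = 0.132, edgeR). Dcn and Lum moved in opposite directions among mice. In mouse 2, Lum was 22.3 FPM in the control and 102 FPM with EGF, and Dcn was 273 and 632 FPM. In mouse 3, Dcn was 2668 and 1164 FPM. With AngII, 0% of all genes were called lower, and 0 of the 9 genes had an unadjusted p under 0.05 in edgeR or an adjusted one in DESeq2. Ogn was nonetheless slightly lower with AngII in 6 of 6 mice, by 0.13 to 0.57 on the log2 scale (adjusted p = 1.00, edgeR). EGF+AngII gave 0 calls against 1.58% of all genes called lower. There edgeR had 2 of the 9 at an unadjusted p under 0.05, and DESeq2 alone passed 1, which was Ogn at -1.24 (SE 0.40, adjusted p = 0.0636 in edgeR).

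Ordered by median, Ogn was 134 FPM in control, 98.8 with AngII, 60.0 with EGF, 44.5 with EGF+AngII, 13.02 with U46619, 9.43 with EGF+U46619 and 6.94 with all 3 ligands. No neighbours in this order differed beyond their spread after adjustment (adjusted p = 0.0938 to 0.438, exact two-sided sign-flip permutation test over 6 mice). The 3 groups with U46619 were the lowest 3 for Ogn, and in the same medians for Aspn (3.17, 1.67 and 1.44 FPM), Dcn (158.02, 132 and 118 FPM), Prelp (247, 85.0 and 73.2 FPM) and Lum (2.28, 1.32 and 0.83 FPM). In the same group order this also held for Ecm2 (1.34, 1.66 and 1.29 FPM), Fmod (20.5, 9.08 and 9.52 FPM) and Omd (0.80, 0.48 and 0.29 FPM). It did not hold for Podn.

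The direct comparisons asked whether adding a ligand changed the response. EGF+U46619 against EGF lowered 7 of the 9 genes, while 6.11% of all genes were called lower. Ogn was at -2.32 (SE 0.42, adjusted p = 0.000454) and Aspn at -3.50 (SE 0.44, adjusted p = 7.70e-06, both edgeR). Without mouse 1 the count was 4, since Dcn, Fmod and Prelp lost their calls. No share of all genes is given for that fit, so the loss is not shown to be particular to these genes. EGF+U46619 against U46619 gave 0 calls, with 0% of all genes called lower, although all 9 estimates were below 0 and 4 genes had an unadjusted p under 0.05 in edgeR (0 in DESeq2 after adjustment). Ogn was lower with EGF+U46619 than with U46619 in 6 of 6 mice, with a log2-fold change of -0.93 (SE 0.41). Prelp was also lower in 6 of 6, at -0.81 (SE 0.46), and so was Podn, at -0.65 (SE 0.22). The adjusted p was 1.00 for all 3 in edgeR. Adding AngII to EGF+U46619 gave 0 calls, and 0 genes at an unadjusted p under 0.05, with 0 in DESeq2. Adding AngII to EGF likewise gave 0 calls, 0 at an unadjusted p under 0.05 and 0 in DESeq2. The departure from additivity on the log2 scale of EGF and U46619 gave 0 calls, 2 genes at an unadjusted p under 0.05 in edgeR and 0 in DESeq2. In each of these 3 comparisons 0% of all 14653 genes were called lower, so the absence of calls was not particular to the 9 genes. Lum had the lowest value of that term, -2.23 (SE 0.87, adjusted p = 1.00, edgeR).

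Over the 42 libraries at 24 h, after each mouse mean was removed, the member most like each gene lay on its own chromosome for 8 of 9 genes. Ogn and Omd shared a Pearson r of 0.96, Aspn and Ecm2 0.93, Dcn and Lum 0.95, and Fmod and Prelp 0.96. The libraries share the treatment contrast and the mice, so these values describe and are not tested. When the treatment means were removed too, 6 of 9 kept a partner on their own chromosome (Ogn and Omd at 0.84, Dcn and Lum at 0.92, Fmod and Prelp at 0.89), and Aspn and Ecm2 were most like Dcn instead (0.79 and 0.85). At 48 h, with culture set means removed, the count was 5 of 9, and Ogn and Omd were again the closest (0.97, 40 libraries). Without controls 2 and 4 of the EGF/AngII batch it was 6 of 9, with Ogn and Omd at 0.97 over 38 libraries. Podn correlated at no more than 0.22 with any other member at 24 h. At 48 h it did so far more, at 0.83 with Prelp and 0.78 with Lum, and at 0.80 with Prelp when treatment means were removed too. Without the 2 controls those values with Prelp were 0.80 and 0.62. Among all other genes, the closest to Ogn at 24 h were Appl2 (r = 0.98), Mettl7a1 (0.96) and Ube2h (0.96). The closest gene was Scara5 for Omd (0.94), Ccdc152 for Aspn (0.95), Matn2 for Ecm2 (0.97), Ankrd35 for Dcn (0.93), Col6a1 for Lum (0.93), Carmil3 for Fmod (0.96) and Mxd4 for Prelp (0.96).

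**Figure D3:**
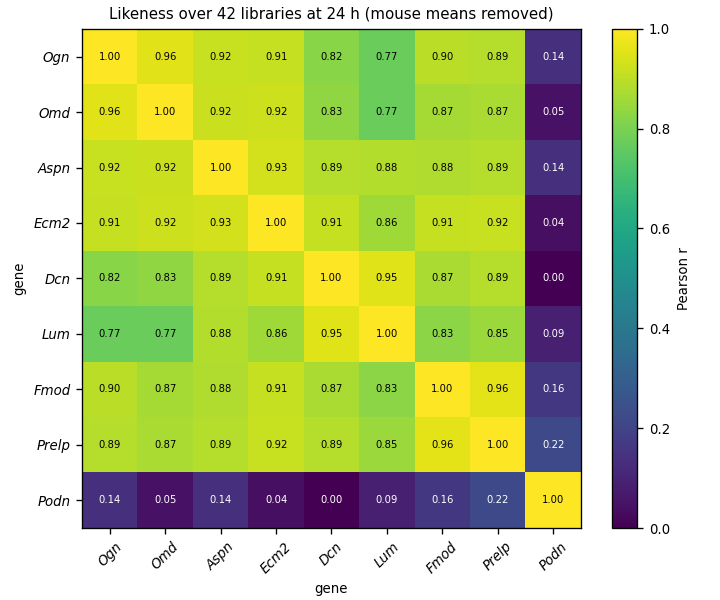
Pearson r between each pair of the 9 tested genes over the 42 libraries at 24 h, computed on log2(FPM + 0.5) after the mean of each mouse was removed. The highest off-diagonal value of each gene other than Podn falls within its own chromosomal cluster, and the Podn row is at or below 0.22.

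Set beside its neighbours on chromosome 13, the fall of Ogn was shared with the 3 adjoining members and not with the other genes measured around them. Of 31 annotated genes that start within 500 kb of Ogn, 12 passed the filter at both times. With U46619 at 24 h, Ecm2, Aspn and Omd had log2-fold changes of -2.27, -2.46 and -2.101. The genes on either side were Tes3.ps at 0.10 (SE 0.36) and Nol8, a nucleolar protein gene, at 0.72 (SE 0.23, called higher). Cenpp, the gene around the cluster, was at 0.70 (SE 0.45, adjusted p = 0.227, edgeR) from a mean control level of 2.37 FPM. Farther out, Fgd3 was called higher at 1.89 (SE 0.49), as were Bicd2, a dynein adaptor gene, at 0.58 (SE 0.17) and Iars, the isoleucyl-tRNA synthetase gene, at 0.93 (SE 0.19). Ninj1, Card19 and Ippk, at 0.15, 0.19 and 0.35, were not called.

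The change of Ogn was then set against that of each neighbour within each mouse. On log2(FPM + 0.5), Ogn changed by a mean of -2.72 with U46619. It was lower than that of all 9 neighbours outside the family in 6 of 6 mice, by 2.80 against Tes3.ps (SD 1.43) to 4.57 against Fgd3 (SD 2.097), with an adjusted p of 0.0417 for each (exact two-sided sign-flip permutation test, 12 neighbours, at the smallest p 6 mice allow). Against Aspn, which changed by -2.32, the difference was -0.41 (SD 0.85, exact adjusted p = 0.344). Against Ecm2 it was -0.75 (SD 1.13, exact adjusted p = 0.205), and against Omd -1.07 (SD 0.70, exact adjusted p = 0.075). With EGF+U46619, Ogn changed by -3.46 and differed from the same 9 neighbours and from Omd, which changed by -1.88 (difference -1.58, SD 0.53, exact adjusted p = 0.0375). Low counts of Omd compress its value on this scale, and with a pseudocount of 0.1 FPM the difference from Omd was no longer past the threshold.

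**Figure D4:**
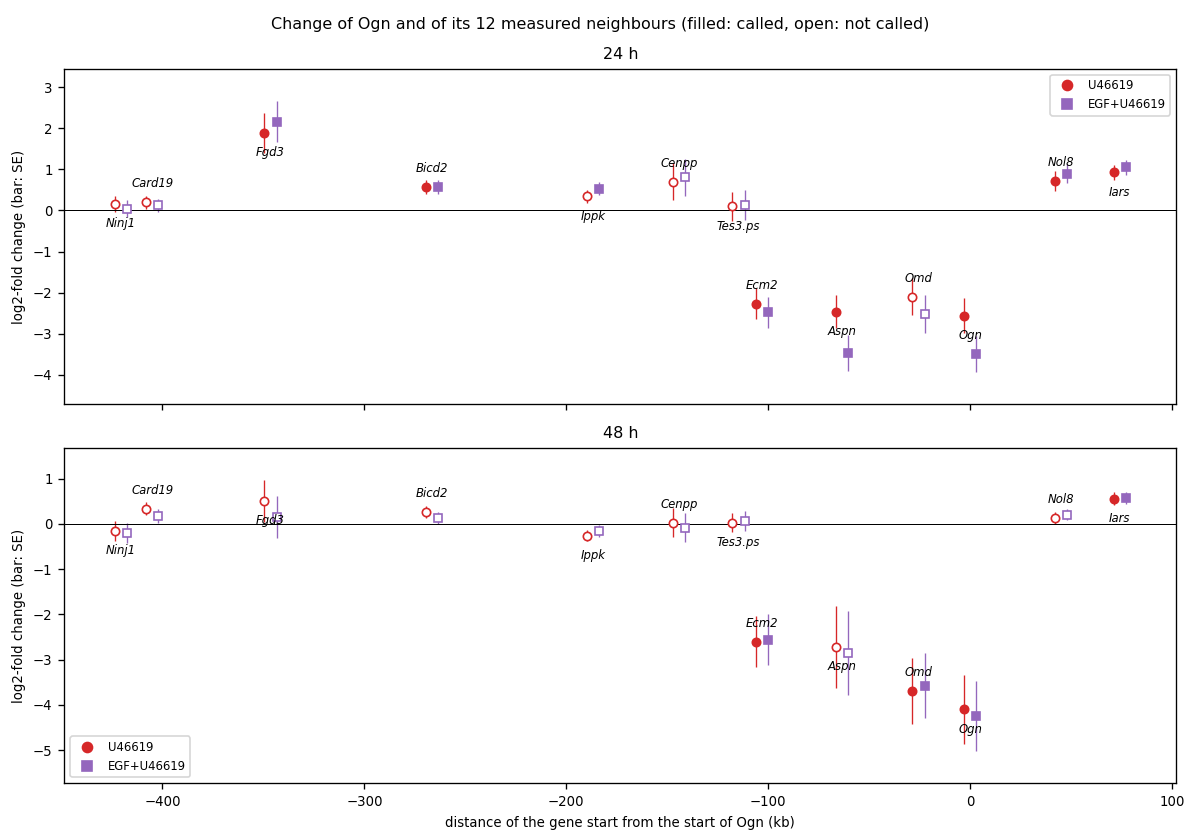
Log2-fold change against control (bars are SE) of Ogn and its 12 measured neighbours, placed by the distance of each gene start from the start of Ogn in kb, for U46619 and EGF+U46619 at 24 h and 48 h, with filled points where called. Ecm2, Aspn, Omd and Ogn lie below -2 at both times and the neighbours on both sides lie near or above 0.

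At 48 h, U46619 lowered fewer genes past the threshold, but the chromosome 13 genes were again among them. Ogn, Omd and Ecm2 were called lower, 3 of the 9, against 1.42% of 15796 genes tested (2.28% were called higher). EGF+U46619 added Fmod, for 4 of 9 against 2.77% of all genes. The median log2-fold change of the 9 genes was -1.95 and -2.65. In culture sets 1 to 5 of the EGF/U46619 batch, Ogn was 238, 80.2, 129, 27.7 and 88.8 FPM in the controls. With U46619 it was 12.3, 8.97, 7.70, 5.55 and 19.1 FPM, and with EGF+U46619 13.6, 7.56, 6.57, 8.13 and 6.10 FPM. All treated values lay below all 10 controls of both batches. The log2-fold change with U46619 was -4.10 (SE 0.77, adjusted p = 0.00209, edgeR) in the fit over both batches with the labelled mouse as a term. It was -3.02 with the culture set as the replicate block and -3.15 in the batch alone, so the value depended on how the sets were blocked.

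Omd was 24.0, 4.03, 11.6, 3.10 and 8.28 FPM in the 5 controls of the batch and 2.09, 0.46, 0.52, 1.03 and 0.75 FPM with U46619, without overlap. Its log2-fold change was -3.70 (SE 0.73, adjusted p = 0.00305, edgeR) with the labelled mouse as a term and -3.08 with the culture set as the replicate block. Ecm2 was 14.1, 4.25, 10.9, 5.92 and 2.21 FPM and 2.63, 0.74, 1.64, 2.18 and 1.46 FPM, lower in 5 of 5 sets, at -2.60 (SE 0.57, adjusted p = 0.00741, edgeR). With the culture set as the replicate block Ecm2 was at -1.81. On log2(FPM + 0.5) the change in the 5 sets was -3.56 to -1.23 for Omd and -2.42 to -0.47 for Ecm2. That scale compresses changes at low levels, so these ranges are not matched to the fitted values. Aspn was 173.96, 81.8, 42.7, 35.7 and 6.87 FPM and 24.4, 6.90, 5.68, 5.15 and 0.90 FPM. It was lower in every set, by -3.47 to -2.40 on the log2 scale, but the log2-fold change of -2.72 (SE 0.91) was not called (adjusted p = 0.0765, edgeR). The groups overlapped for Aspn, and also for Ecm2, which was called. With the culture set as the replicate block, which compares each set with its own control, Aspn was called at -2.96.

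The replicate block decided how many genes passed at 48 h, among the 9 and among all genes. With the culture set as the block, 6 of 9 genes were called lower with U46619 against 4.48% of all genes, and 7 of 9 with EGF+U46619 against 6.73%. In the EGF/U46619 batch alone the counts were 7 against 8.86% and 9 against 11% of all genes, and Podn was called with EGF+U46619 at -0.88. With control 4 of the EGF/AngII batch left out, Fmod was added with U46619 (-2.11), for 4 of 9 against 1.54%, and Aspn (-2.95) and Prelp (-1.36) with EGF+U46619, for 6 of 9 against 2.74%. Without set 2 of the EGF/AngII batch 7 genes were called with EGF+U46619 against 2.54% of all genes, and without set 4 of that batch 5 were with U46619 against 2.22%. With controls 2 and 4 left out and the culture set as the block, the counts were 8 against 7.46% and 9 against 9.55%. There Ogn, Omd and Ecm2 were at -3.07, -3.15 and -1.89 with U46619. EGF+U46619 against EGF lowered 4 of the 9, Ogn, Omd, Ecm2 and Fmod, against 2.02% of all genes, and 6 with the culture set as the block, against 5.64%. When only the groups compared were fitted, that count was 0, and 0.00633% of all genes were called lower.

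Of the genes outside chromosome 13, Fmod alone was called at 48 h with the labelled mouse as a term. It fell by 2.65 on the log2 scale with EGF+U46619 (SE 0.64, adjusted p = 0.00891, edgeR) and was lower in 5 of 5 sets with either treatment. It was not called without set 3 of the batch (-2.49). Lum with EGF+U46619 was at -3.51 (SE 0.91, adjusted p = 0.0153 in edgeR) but DESeq2 gave it no adjusted p, so it was not called. Dcn was at -1.29 (SE 0.57) and -1.36 (SE 0.56) with U46619 and EGF+U46619, and in set 4 it was 45.7, 45.9 and 50.4 FPM in control, U46619 and EGF+U46619. Prelp in set 5 was 708 FPM in the control and 798 FPM with U46619, whereas in the other sets it was 349, 404, 506 and 400 FPM and 186.6, 227, 505 and 219 FPM.

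EGF, AngII and EGF+AngII gave 0 calls among the 9 genes at 48 h, and none of the 15796 genes was called lower either (0%). In edgeR 0 genes had an unadjusted p under 0.05 in these 3 comparisons, and DESeq2 passed 0. Set 4 of the EGF/AngII batch held the extreme values, with Ogn at 250 FPM in its control, 589 with AngII, 1315 with EGF and 1412 with EGF+AngII. Its control is the library that correlated with set 2. In sets 1, 5 and 6 of that batch Ogn was 77.5, 307 and 101 FPM in the controls and 81.4, 281 and 91.4 FPM with AngII. In set 2, whose control was the other library in doubt, it was 399 and 157.8 FPM. With controls 2 and 4 left out and the culture set as the block, the 3 comparisons again gave 0 calls. The log2-fold changes of the 9 genes were then -0.50 to -0.083 with EGF, where 3 had an unadjusted p under 0.05 in edgeR, -0.47 to -0.068 with AngII and -0.30 to 0.083 with EGF+AngII, where 0 had, and DESeq2 passed 0. EGF+U46619 against U46619 gave 0 calls at 48 h, with 0 genes at an unadjusted p under 0.05 in edgeR and 0 in DESeq2, and so did the departure from additivity and EGF+AngII against EGF. In all 3, 0% of all genes were called lower. Without the 2 controls and with the culture set as the block they again gave 0 calls, with 4, 2 and 0 genes at an unadjusted p under 0.05 in edgeR and 1, 0 and 0 past the adjusted threshold in DESeq2 (the 1 was Lum).

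**Figure D5:**
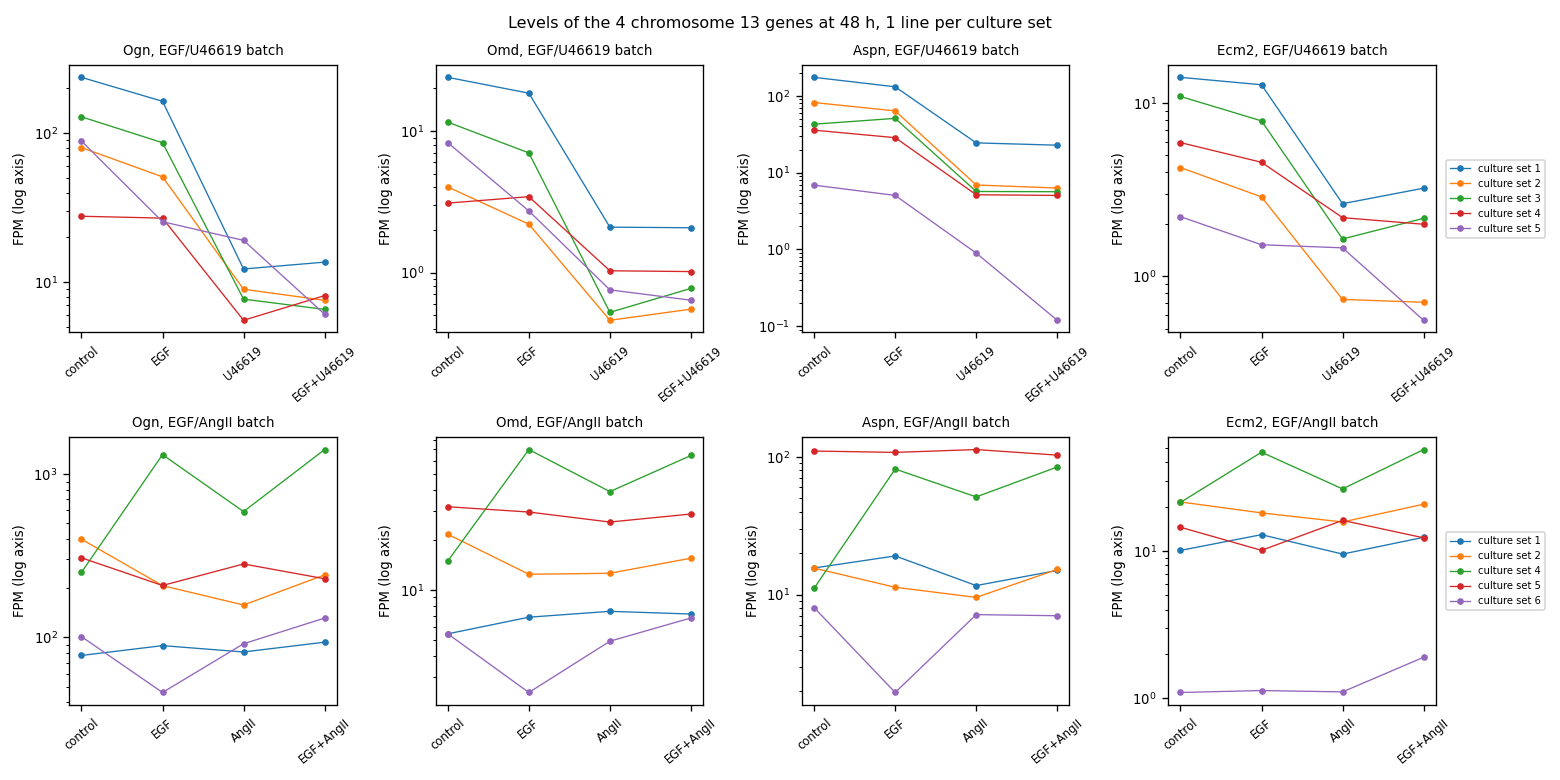
Levels of Ogn, Omd, Aspn and Ecm2 (FPM, log axis) at 48 h, with 1 line per culture set, in the EGF/U46619 batch (top) and the EGF/AngII batch (bottom). In the top row the lines drop at U46619 and stay low with EGF+U46619, and in the bottom row set 4 climbs from its control while the other sets show no shared course.

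The neighbours on chromosome 13 were also compared at 48 h. Ogn changed by -3.14 with U46619 on log2(FPM + 0.5) over the 5 sets, and the 9 neighbours outside the family by -0.05 to 0.66. Ogn was lower than each of the 9 in 5 of 5 sets, with an exact adjusted p of 0.075, and 5 sets cannot give an unadjusted p below 0.062. Iars was called higher with U46619 at 0.56 (SE 0.14), and the other 8 were not called. With controls 2 and 4 left out and the culture set as the block, Fgd3 was called higher too, at 0.54.

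Of the other small leucine-rich proteoglycans, 4 of 9 listed genes were tested at 24 h. Chadl, a chondroadherin-like gene, fell with U46619, at -1.47 (SE 0.33), and Tsku, a secreted modulator of growth factor signalling, rose, at 0.59 (SE 0.15). At 48 h 5 were tested and none was called with either treatment, whereas Chadl was called lower and Tsku higher with both when controls 2 and 4 were left out and the culture set was the block. Among enzymes that build the glycosaminoglycan chains, 3 of 23 rose and 2 fell with U46619 at 24 h, with a median of 0.12. These counts were close to the 12.8% and 13.8% of all genes called higher and lower there. Chst11, a chondroitin sulphotransferase gene, was at 1.22 (SE 0.34), and Xylt1, which starts the chains, at 1.01 (SE 0.29). At 48 h 3 of 25 rose, again with Xylt1 (1.30, SE 0.29) and Chst11 (0.99, SE 0.22), and none fell, against 2.28% and 1.42% of all genes.

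Among fibrillar collagens and their partners, 7 of 15 fell and 1 rose with U46619 at 24 h, with a median of -0.68, against 13.8% of all genes called lower. Tnxb, the tenascin-X gene, was at -2.67 (SE 0.39), Col14a1 at -1.79 (SE 0.36) and Col6a1 at -1.47 (SE 0.35). At 48 h 1 of 14 fell, Col3a1, at -1.54 (SE 0.30), against 1.42% of all genes. With controls 2 and 4 left out and the culture set as the block, 7 of 14 fell, against 7.46%. Of the genes for collagen cross-linking and processing, 4 of 12 rose and 2 fell at 24 h, against 12.8% of all genes called higher and 13.8% lower. Tll1 was at 1.51 (SE 0.42), Loxl3, a lysyl oxidase gene, at 1.03 (SE 0.25), and Adamts2, a procollagen peptidase gene, at -0.97 (SE 0.24).

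Markers of cell types were also compared between control and U46619, where 13.8% of all genes were called lower and 12.8% higher at 24 h. The endothelial list and the chondrocyte and osteoblast list, each with 1 of 9 lower, were close to that share. Of 10 adventitial fibroblast markers tested, 7 fell at 24 h and none rose, with a median of -1.03, and the summed level of the list was 914 to 1276 FPM in control and 424 to 875 FPM with U46619. Scara5 was at -3.29 (SE 0.50) and Pi16 at -1.47 (SE 0.51), and Clec3b and Pcolce2, on chromosome 9, were listed at 0. Of 8 contractile markers, 3 rose and none fell at 24 h, with a median of 0.25, among them Acta2 at 2.05 (SE 0.39), and the summed level was 1364 to 6005 FPM in control and 4678 to 18450 FPM with U46619. Of 9 endothelial markers, 1 fell at 24 h (Cldn5), and the summed level was 9.85 to 2565 FPM and 6.82 to 2253 FPM. Of 4 pericyte markers, 2 fell, and the summed level was 53.8 to 546 FPM in control and 15.9 to 342 FPM. One of 9 chondrocyte and osteoblast markers fell, Sox9, at -1.29 (SE 0.33), with summed levels of 30.7 to 88.1 FPM and 32.4 to 115 FPM. Of 4 macrophage markers, 2 fell and 1 rose, with Ptprc and Fcgr1 at 0 in both groups and summed levels of 22.0 to 117 FPM and 24.3 to 79.3 FPM. S100b, the only Schwann cell marker tested, fell by 2.66 (SE 0.50) on the log2 scale, Ncam1, on chromosome 9, was listed at 0, and the list summed to 1.31 to 30.6 FPM and 0.41 to 2.95 FPM.

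At 48 h, markers of other cells lay below control together with the 9 genes, whose median was -1.95 with U46619. In the fit with the labelled mouse the median log2-fold change with U46619 was -1.66 over 9 endothelial, -1.54 over 7 macrophage, -1.69 over 4 pericyte and -4.37 over 5 Schwann cell markers. Among these markers only S100b was called, at -1.48 (SE 0.30). With the culture set as the block the 4 medians were -0.45, -0.17, -0.53 and -0.84, with Cldn5, Tek, Lyz2, Rgs5 and S100b called lower, and that of the 9 genes was -1.81. With controls 2 and 4 left out as well they were -0.28, -0.014, -0.37 and -0.83, with Egfl7, Tek, Lyz2, Notch3, Rgs5 and S100b called lower and Cd68 and Csf1r higher. The summed endothelial level was 20.9 to 2705 FPM in the 10 controls and 17.8 to 1068 FPM with U46619. Macrophage markers summed to 42.2 to 658 FPM and 43.8 to 80.8 FPM, pericyte markers to 65.2 to 327 FPM and 45.5 to 173.4 FPM, and Schwann cell markers to 11.1 to 64.99 FPM and 5.56 to 33.3 FPM. The 10 controls come from both batches and the U46619 cultures from the EGF/U46619 batch alone, so these ranges are not matched. In the EGF/AngII batch, macrophage markers reached 553 FPM with AngII and 858 FPM with EGF+AngII.

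Among adventitial fibroblast markers 2 of 9 fell with U46619 at 48 h, with a median of -0.96, against 1.42% of all genes called lower. Without the 2 controls and with the culture set as the block, 6 of 9 fell, against 7.46%. In sets 1 to 5 of the EGF/U46619 batch their summed level was 1177.5, 2155, 1868, 1583 and 2316 FPM in the controls. With U46619 it was lower in every set, at 863, 1494, 1462, 1078 and 1908 FPM. None of 10 chondrocyte and osteoblast markers was called, with a median of -0.83. Of 8 contractile markers, 0 were called with U46619 at 48 h, with a median of -0.48. In sets 1 to 5 of the EGF/U46619 batch their summed level was 3996, 1863, 4705, 8334 and 1797 FPM in the controls. With U46619 it was 3603, 1929, 5087, 5731 and 1212 FPM, lower in sets 1, 4 and 5 and higher in sets 2 and 3. With EGF+U46619 Mylk, the gene of myosin light chain kinase, fell by 1.44 (SE 0.46) on the log2 scale, and the list had a median of -0.59. With the culture set as the block 6 of 8 fell, against 6.73% of all genes. The part of these markers in the fall of the 9 genes was not tested.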

How the data were processed

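Poly(A)-selected RNA of 82 aVSMC cultures was sequenced paired-end, 42 at 24 h and 40 at 48 h. Per the labels and the study's methods, the authors mapped reads to mm10 with HISAT2 2.1.0 and deposited raw gene counts from featureCounts, in which multi-mapping reads were counted over exons. The strand setting is not given in the sources used here. Gene positions and exon lengths came from GENCODE vM21 (55141 of 55401 gene IDs matched), and promoter windows from RefSeq on GRCm38.p6.

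FPM were computed with TMM library sizes for each time point in edgeR 4.0.16 (R 4.3.3). Genes passing filterByExpr numbered 14653 at 24 h, 15796 at 48 h and 14528 at both. Models held mouse and treatment, with all groups of a time point fitted together, and tests were edgeR's quasi-likelihood test and the Wald test of DESeq2 1.42.0. A gene was called at an adjusted p (Benjamini-Hochberg over all genes tested) under 0.05 in both tools, a mean of at least 5 FPM in a group compared, and the filter passed at both times. SE was derived from log2-fold change and F statistic. Exact sign-flip tests used log2(FPM + 0.5) differences within mouse or culture set. All p-values treat mice or culture sets as replicates.

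Same-numbered cultures paired at 24 h, where all 126 pairs within a mouse correlated at over 0.1 after group means were removed (0.40 to 0.95). Among the 60 pairs from 1 culture set at 48 h, 57 passed, and the remaining 3 held control 4 of the EGF/AngII batch. The labels give 5 mice for the 10 culture sets at 48 h, whereas the methods describe a different mouse per replicate.

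On simulated counts with 200 changed genes, the U46619 contrast recovered 116 in 125 calls at 24 h (14653 genes) and 108 in 111 at 48 h (15796 genes). The 10 genes and all lists were chosen with earlier results of these data known. Named genes were the 10, the neighbours starting within 500 kb of Ogn, the 3 genes most like each called member, and from each list at most 3 with the largest change among those called. Alternatives were another tool, scaling, filter, block or set of libraries, and each replicate left out. The mouse numbers of the labels do not pair culture sets at 48 h. Of 176 pairs from other sets of the same mouse number, 78 correlated at over 0.1, with a median of 0.07 (-0.47 to 0.58).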

Additional observations from a re-analysis of the deposited data

Results flagged for a closer look

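In 6 of 117 gene and group combinations, 1 culture lay far from the others of its group. Chance gives about 1 in 20, so this count was near what chance gives. Ogn with EGF at 48 h was 1315 FPM in set 4 of the EGF/AngII batch and 25.5 to 208 FPM in the other 9 cultures. In the controls at 48 h, Prelp was 145 FPM in the same set, whose control library stood apart, and 349 to 708 FPM in the others. Dcn with EGF+U46619 at 48 h was 878 FPM in set 5 of the EGF/U46619 batch and 50.4 to 110 FPM in the other sets. At 24 h, Ecm2 with U46619 was 7.02 FPM in mouse 6 and 0.77 to 1.75 FPM in the other mice. Omd with EGF+AngII was 1.19 FPM in mouse 5 and 2.29 to 3.23 FPM in the others. Podn with all 3 ligands was 9.19 FPM in mouse 3 and 30.0 to 50.3 FPM in the others.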

How the results depend on the processing

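Of the refitted log2-fold changes of the 9 genes, 931 kept their direction and side of the threshold, 81 gained a call, 48 lost one and 2 reversed. The reversed pair was Podn with all 3 ligands at 24 h, at 0.079 without mouse 3 and just above 0 without mouse 5 (range -0.33 to 0.079 with 1 mouse left out). Without a replicate block, the called genes at 24 h numbered 3 with U46619, 3 with EGF+U46619, 3 with all 3 ligands and 2 for EGF+U46619 against EGF, and at 48 h 2 with EGF+U46619 and 2 for EGF+U46619 against EGF. With the culture set as the replicate block at 48 h the counts were 6 with U46619 and 7 with EGF+U46619, in 1 batch alone 7, 9 and 8 (the last for EGF+U46619 against EGF), and without controls 2 and 4 of the EGF/AngII batch 8, 9 and 8, which was chosen after seeing the data. DESeq2 alone gave 5 with U46619 and 7 for EGF+U46619 against EGF at 48 h, and 1 with EGF+AngII at 24 h, as did no filter on low counts. With only the groups compared in the fit, EGF+U46619 against EGF at 48 h gave 0. With 1 replicate left out, the ranges were 0 to 1 for EGF+AngII and 4 to 7 for EGF+U46619 against EGF at 24 h, and 3 to 5 for U46619, 3 to 7 for EGF+U46619 and 3 to 7 for EGF+U46619 against EGF at 48 h. Apart from the shares given further above, no share of all genes stands beside these counts. Where it is missing, they do not show whether a change in calls was particular to the 9 genes. Neighbours that differed from Ogn at 24 h went from 9 and 10 to 0 with any mouse left out, since 5 mice cannot give a p below 0.062. The cause of the other changes was not tested. Counts of Kera, Omd and Lum limit what these libraries can show of those genes.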
